A study of Homo sapiens with 16 samples.

Results

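ZNF10, a zinc finger repressor, and 6 proteins through which repressors of its class silence genes (TRIM28, SETDB1, ATF7IP, CBX1, CBX3 and CBX5) were followed across 4 conditions of a human cell line. These 7 genes were chosen by symbol from the 26485 genes in the count files. ZNF10 was picked because its ribosome footprints had differed between the guides in an earlier look at these data, so its footprint values by guide are given here as a description, with no test. The 6 cofactors were picked for their function. The cells were MDA-MB-231, an established line from a triple-negative breast cancer, which the labels call a xenograft cell line. Ribosome footprints are the pieces of mRNA that stay intact under a ribosome when the rest is digested, and they were sequenced beside total RNA from cells lysed with cycloheximide. Every group had CRISPRi, the use of a guide RNA to direct a repressor protein to a target gene. The guide was directed either against eGFP, the control target, or against the gene for tRNA-Ile-GAU. Each guide was combined with a control construct or with a construct that overexpresses tRNA-Ile-UAU. The 4 conditions in 2 assays gave 8 groups of 2 libraries, 16 in all. The series asks, by its design text, how the translation of isoleucine-rich transcripts responds when the balance of these tRNAs is changed.

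ZNF10, also known as KOX1, belongs to the large family of KRAB zinc finger proteins, which bind DNA through arrays of zinc fingers and repress through the KRAB domain at their start. The KRAB domain recruits TRIM28 (KAP1), a scaffold that brings the histone methyltransferase SETDB1 and its stabilising partner ATF7IP. SETDB1 places methyl groups on lysine 9 of histone H3, and the HP1 proteins encoded by CBX5 (HP1 alpha), CBX1 (HP1 beta) and CBX3 (HP1 gamma) bind that mark. The KRAB domain of ZNF10 is the one commonly fused to inactive Cas9 to make CRISPRi repressors. The labels neither name the repressor used nor say whether the cells were clones or pools. A file gives 1 count per gene symbol, so reads from the chromosomal gene and reads from a construct that holds part of its sequence cannot be told apart in these values.

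ZNF10 lies near the end of the long arm of chromosome 12 (133130627 to 133159465, GRCh38.p14), and no other gene of the RefSeq table overlaps it. Its nearest neighbour, ZNF891 (133104779 to 133130274), is read from the opposite strand, and the first bases of these genes are 353 bases apart. The start regions of both genes are shown because they share 148 bases, while their expression by guide is compared below. Each window runs 5′ to 3′ on its gene's strand from 250 bases before to 50 bases after the start (RefSeq, GRCh38.p14), at chr12:133130377-133130676 on the plus strand for ZNF10 and chr12:133130225-133130524 on the minus strand for ZNF891. Capitals mark the GC box GGGCGG, the CCAAT box CCAAT and the cyclic AMP response element TGACGTCA, searched on both strands.
ZNF10: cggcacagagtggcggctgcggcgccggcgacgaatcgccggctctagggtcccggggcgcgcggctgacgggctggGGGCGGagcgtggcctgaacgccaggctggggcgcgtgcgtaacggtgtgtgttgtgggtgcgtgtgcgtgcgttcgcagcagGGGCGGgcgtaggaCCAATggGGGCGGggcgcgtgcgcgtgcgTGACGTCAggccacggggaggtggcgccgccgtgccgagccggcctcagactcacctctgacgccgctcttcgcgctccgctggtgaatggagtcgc
ZNF891: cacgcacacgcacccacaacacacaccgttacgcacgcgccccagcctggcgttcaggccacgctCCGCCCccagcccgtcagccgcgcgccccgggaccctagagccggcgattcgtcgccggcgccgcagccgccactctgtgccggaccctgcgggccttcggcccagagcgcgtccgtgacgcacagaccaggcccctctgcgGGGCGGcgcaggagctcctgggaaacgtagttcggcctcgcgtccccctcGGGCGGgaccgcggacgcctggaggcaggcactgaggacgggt
The ZNF10 window is 74.3% G and C, against a median of 58.7% over the 35116 windows of the table. It holds 3 GC boxes, 1 CCAAT box and 1 cyclic AMP response element, none of them overlapping. The ZNF891 window holds 3 GC boxes and 0 of each of the other motifs. Of these boxes, 1 lies in the 148 shared bases and is counted in both windows. Of all windows, 45.0% hold a GC box, 34.6% a CCAAT box and 1.85% the full cyclic AMP response element. A match describes the letters only.

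Counts on genes were 358340 to 938909 per footprint library and 2512247 to 5446599 per total RNA library. The total RNA libraries of the cells with both the tRNA-Ile-GAU guide and the tRNA-Ile-UAU construct stood apart from each other: ribosomal protein genes took 2.42% of the counts in replicate 1 and 1.43% in replicate 2, against 1.28 to 1.76% in the other 6. Of the markers checked in total RNA, all 5 of MDA-MB-231 were above 10 CPM (counts per library scaled to 1e6) on average, with a sum of 4445 to 4789 CPM per library. Of 5 luminal markers 1 was above 10 CPM (sum 92.3 to 237). The 5 fibroblast, 4 immune and 3 endothelial markers summed to at most 14.6, 32.1 and 10.2 CPM. The labels number the replicates without saying that they are separate cultures, and the p-values therefore reflect only how far these libraries spread, which may be technical. The guide, its target and the cells that received it coincide in the design and cannot be told apart.

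ZNF10 carried more footprints in every library with the tRNA-Ile-GAU guide than in any with the eGFP guide. In cells with the eGFP guide and the control construct, ZNF10 had 180.9 and 157 footprint CPM (each count divided by the counts on genes of its library). With the eGFP guide and the tRNA-Ile-UAU construct the values were 237 and 213 CPM. With the tRNA-Ile-GAU guide they were 503 and 483 CPM beside the control construct and 414 and 623 CPM beside the tRNA-Ile-UAU construct. The 2 guides did not overlap, but the share of all genes that separate by guide in this way was not counted, here or in total RNA. These values rest on 85 to 427 reads per library. The mean was 506 ± 86.6 CPM with the tRNA-Ile-GAU guide and 197 ± 35.3 CPM with the eGFP guide (SD, n = 4), a ratio of 2.57. In the model of all genes the log2 fold change was 1.36 ± 0.10 (SE), 1.53 ± 0.14 beside the control construct and 1.19 ± 0.15 beside the tRNA-Ile-UAU construct. Across the 8143 genes tested for footprints, 218 (2.68%) passed an adjusted p of 0.05 by guide, 56 upward and 162 downward.

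**Figure D1:**
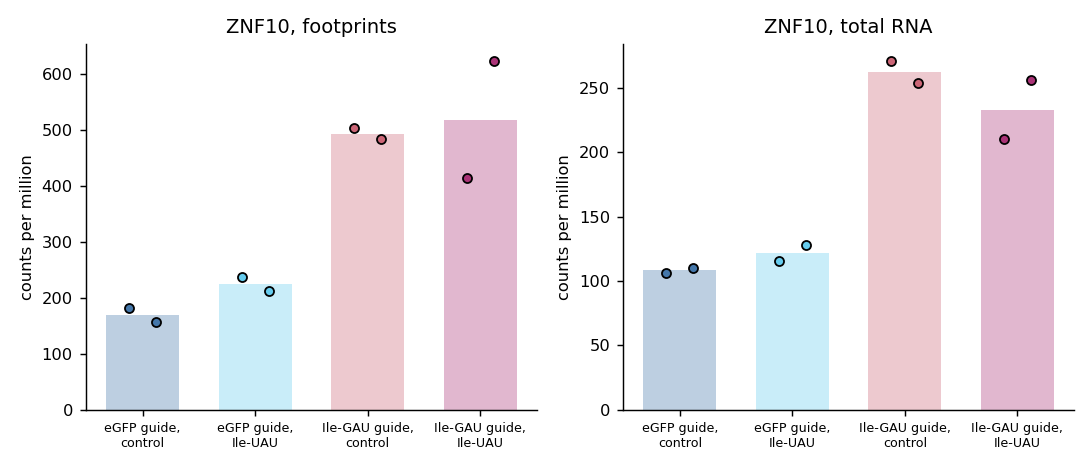
ZNF10 in CPM (vertical axes) in footprints and total RNA, by guide and construct (horizontal axes). Points are libraries and bars are means of 2 libraries; in both assays all 4 libraries with the tRNA-Ile-GAU guide lie above all 4 with the eGFP guide.

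ZNF10 also rose in total RNA. The gene was chosen on footprints of the same 4 conditions, and footprints depend on the amount of mRNA. Its test in total RNA, though made on other libraries, is therefore not independent of that choice. ZNF10 had 105.9 and 110.4 total RNA CPM in control cells and 116 and 128 CPM with the tRNA-Ile-UAU construct alone. With the tRNA-Ile-GAU guide it had 270.5 and 254 CPM beside the control construct, and 210.4 and 256 CPM beside the tRNA-Ile-UAU construct. Again the lowest of the 4 libraries with the tRNA-Ile-GAU guide lay above the highest of the 4 with the eGFP guide. ZNF10 total RNA rose with the guide by a log2 fold change of 1.10 ± 0.09 (SE, adjusted p = 0.00167 by edgeR's quasi-likelihood test over 11720 genes), from a mean of 115 ± 9.45 to 248 ± 25.9 CPM (SD, n = 4), or 2.16 times. By guide, 126 of these genes passed (1.08%), 21 upward and 105 downward, and ZNF10 ranked 3 of all by p and 52 by rise. That count was unstable: it was 545 and 1820 without replicate 1 or 2 of the cells with both modulations, 6 to 9 without any 1 of the other 6 libraries, and 14 without chromosome 7 genes. Its adjusted p stayed between 1.11e-25 and 0.0435 in the 14 alternative analyses, and its log2 fold change between 1.00 and 1.18. The difference was 1.29 ± 0.13 beside the control construct and 0.92 ± 0.13 beside the tRNA-Ile-UAU construct. With all libraries, the interaction of guide and construct for ZNF10 total RNA was -0.37 ± 0.19 (adjusted p = 0.998, edgeR). Without replicate 2 of the cells with both modulations it was -0.55. That group then rests on replicate 1 alone, whose ribosomal protein share of 2.42% was the highest of the total RNA libraries.

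Translational efficiency is the footprint difference less the total RNA difference. For ZNF10 it was 0.25 ± 0.17 on the log2 scale by guide, which is given without a test because it contains the footprints. The ratio of footprint CPM to total RNA CPM was 1.56 in control cells, 1.85 with the tRNA-Ile-UAU construct, 1.88 with the tRNA-Ile-GAU guide and 2.22 with both. In control cells the ratio of ZNF10 stood at percentile 61.6 of the 8012 genes tested in both assays, whose median was 1.07. The 3 zinc finger genes beside it that could be measured in both assays had lower ratios in control cells: 0.437 for ZNF140, 0.286 for ZNF268 and 0.222 for ZNF84. ZNF10 was above those 3 genes in each of the 4 conditions. Among the cofactors TRIM28 had a ratio of 7.21 (percentile 92.8), whereas CBX1, CBX3 and CBX5 had 0.271, 0.103 and 0.0618. Total RNA reads cover untranslated parts of a transcript and footprints mostly do not, so the ratio also moves with the make-up of each transcript. No gene passed the test of translational efficiency by guide (0 of 8012, 0% by edgeR, and 0 by DESeq2), where 372 had an unadjusted p under 0.05. Without replicate 2 of the cells with both modulations in total RNA, 406 genes passed.

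**Figure D2:**
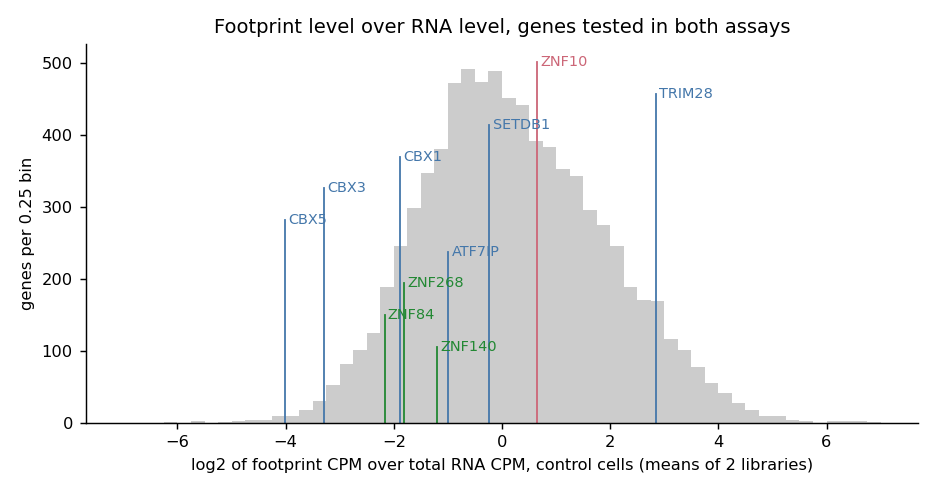
Histogram of the log2 ratio of footprint CPM to total RNA CPM in control cells (horizontal axis) over genes tested in both assays, in bins of 0.25 (vertical axis, genes per bin). Vertical lines mark ZNF10 (red), the 6 cofactors (blue) and 3 neighbouring zinc finger genes (green), their heights chosen only to separate the names; ZNF10 lies right of its 3 neighbours, and CBX3 and CBX5 lie far to the left.

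Of 15 listed neighbours at the end of chromosome 12, 10 were abundant enough to test in footprints and 12 in total RNA, and 0 passed by guide in either assay (edgeR), which is near the 2.68% and 1.08% of all genes. At an unadjusted p under 0.05 the counts were 0 and 1 (ANKLE2, a nuclear envelope protein, -0.18 ± 0.07 in total RNA, adjusted p = 0.372), beside 13.4% and 10.5% of all genes. Their median log2 fold change was -0.11 in footprints and -0.09 in total RNA, against 0.01 and 0.02 over all genes tested. ZNF891, whose start region overlaps that of ZNF10, had 6.37 to 8.64 total RNA CPM with the eGFP guide and 4.37 to 11.6 CPM with the tRNA-Ile-GAU guide, and these ranges overlap. Its total RNA differed by 0.00 ± 0.31 (adjusted p = 0.999), and it had only 0 to 3 footprint reads per library. ZNF268, on the far side of ZNF10, differed by -0.36 ± 0.28 in footprints and 0.04 ± 0.11 in total RNA (adjusted p = 0.624 and 0.922). ZNF140, also a KRAB zinc finger gene, differed by 0.09 ± 0.41 and -0.06 ± 0.13 (adjusted p = 0.960 and 0.906). The highest value among the neighbours was that of ZNF84 in footprints, 0.48 ± 0.32 (adjusted p = 0.546), on 3 to 23 reads per library. The neighbours named here were picked after their values were seen.

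**Figure D3:**
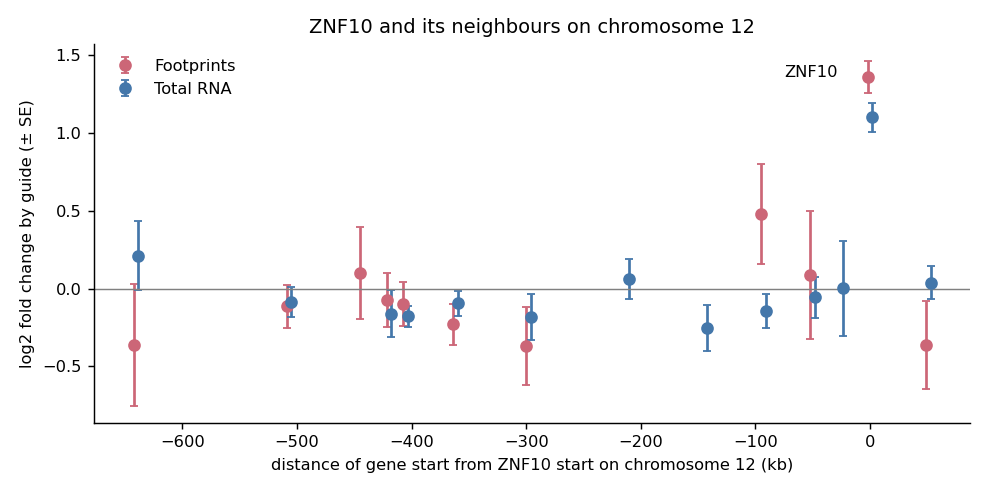
Log2 fold change by guide with its standard error (vertical axis) against the distance of each gene's start from that of ZNF10 in kb (horizontal axis), for footprints and total RNA. ZNF10 is at 1.36 and 1.10, and the tested neighbours lie between -0.37 and 0.48.

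Among the cofactors none passed by guide in footprints (0 of 6, lowest adjusted p = 0.588 for TRIM28; edgeR) or in total RNA (0 of 6, lowest adjusted p = 0.276 for CBX3), beside 2.68% and 1.08% of all genes. None of the 6 had an unadjusted p under 0.05 in footprints, and CBX3 and CBX5 had one in total RNA, where 13.4% and 10.5% of all genes tested had one. DESeq2 called 0 of the 6 in either assay, but in footprints it gave no adjusted p for CBX1. Their log2 fold changes by guide lay between -0.18 and 0.21 in footprints (median 0.10) and between -0.35 and 0.37 in total RNA (median -0.04), where ZNF10 had 1.36 and 1.10. Fewer cells of a type and less RNA per cell cannot be told apart in such bulk libraries.

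**Figure D4:**
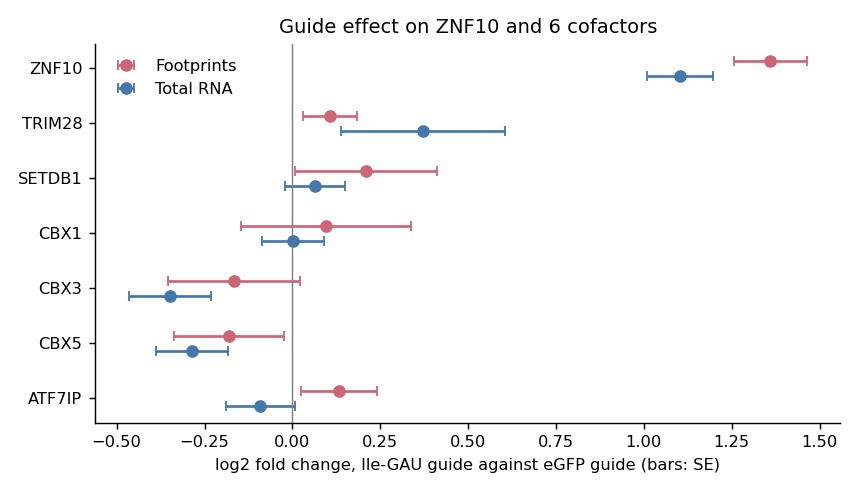
Log2 fold change of the tRNA-Ile-GAU guide against the eGFP guide (horizontal axis) with its standard error for the 7 genes (vertical axis), in footprints and total RNA. ZNF10 stands at 1.36 and 1.10, and the 6 cofactors lie between -0.35 and 0.37.

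TRIM28, the scaffold that KRAB domains bind, differed little by guide in footprints and was uneven in total RNA. Its footprints were 1054 and 967 CPM in control cells, 1021 and 977 CPM with the tRNA-Ile-UAU construct, 943 and 1074 CPM with the tRNA-Ile-GAU guide, and 1129 and 1228 CPM with both. The guides overlapped, and the difference by guide was 0.11 ± 0.08 (adjusted p = 0.588). Both footprint libraries with both modulations lay above all the others, and how many genes do so was not counted. The guide difference was -0.01 ± 0.11 beside the control construct and 0.23 ± 0.11 beside the tRNA-Ile-UAU construct, given without a test. TRIM28 total RNA was 144 and 136 CPM in control cells, 95.5 and 156 CPM with the construct, 154 and 149.6 CPM with the guide, and 280.4 and 116 CPM with both. The last pair of libraries spans the whole range of the 4 libraries with the tRNA-Ile-GAU guide, and it is the pair whose ribosomal protein shares were 2.42% and 1.43%. Whether what sets these libraries apart also sets TRIM28 was not tested. By guide, TRIM28 total RNA differed by 0.37 ± 0.23 (adjusted p = 0.647). This difference was 0.60 without replicate 2 of the cells with both modulations and -0.00 without their replicate 1. With no filter on low counts it passed at 0.37 (adjusted p = 0.0103, edgeR). Without that replicate 2, the interaction was 0.95 and the translational efficiency by guide -0.50. The group with both modulations then rests on replicate 1 alone, the library with 280.4 CPM.

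SETDB1, the methyltransferase, differed little between libraries in total RNA. It had 49.0 and 49.9 CPM in control cells, 54.9 and 53.8 CPM with the construct, 56.9 and 57.8 CPM with the guide, and 51.4 and 51.5 CPM with both. The guides overlapped, with a difference of 0.06 ± 0.09 (adjusted p = 0.828). SETDB1 footprints were few, 11 to 50 reads per library, at 30.7 to 48.0 CPM with the eGFP guide and 37.3 to 60.4 CPM with the tRNA-Ile-GAU guide (0.21 ± 0.20, adjusted p = 0.718). ATF7IP, which protects SETDB1 in the nucleus, had 198 to 215 footprint CPM with the eGFP guide and 193 to 284 CPM with the tRNA-Ile-GAU guide (0.13 ± 0.11, adjusted p = 0.657). The highest of these, 284 CPM, was replicate 1 of the cells with the guide and the control construct, whose replicate 2 was the lowest of all 8. ATF7IP total RNA was 409 to 446 and 360.4 to 457 CPM (-0.09 ± 0.10, adjusted p = 0.787, edgeR). It differed by -0.20 without replicate 2 of the cells with both modulations and by 0.00 without their replicate 1. Either fit leaves that group as a single library.

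Of the HP1 genes, CBX3 and CBX5 had lower total RNA with the tRNA-Ile-GAU guide in these libraries, by amounts that did not pass. CBX3 total RNA was 439 and 443 CPM in control cells and 417 and 422 CPM with the construct. With the guide it was 308 and 340.2 CPM beside the control construct and 291 and 415 CPM beside the tRNA-Ile-UAU construct. The guides did not overlap, but the last of these values lay just under the lowest with the eGFP guide. The share of all genes that separate in this way was not counted. CBX3 differed by -0.35 ± 0.12 in total RNA (adjusted p = 0.276) and by -0.17 ± 0.19 in footprints (adjusted p = 0.769). CBX3 lies on chromosome 7 (26201443 to 26213607), whose genes had a median log2 fold change by guide of -0.37 in total RNA (516 of 553 lower) and -0.39 in footprints (342 of 371 lower). Its total RNA value stood at percentile 53.5 of that chromosome's genes and its footprint value at percentile 80.9. Whether the shift of the chromosome carries CBX3 was not tested.

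CBX5 lies on chromosome 12 (54230942 to 54280122), as does ZNF10. Its total RNA was lower with the guide, as was that of CBX3. It was 1162 and 1159 CPM in control cells, 1210 and 1144 CPM with the construct, 885 and 939 CPM with the guide, and 867 and 1154 CPM with both. The last value, from replicate 2 of the cells with both modulations, lay within the range of the eGFP guide, and the other 3 below it. CBX5 differed by -0.29 ± 0.10 in total RNA (adjusted p = 0.332) and by -0.18 ± 0.16 in footprints (adjusted p = 0.672). Both CBX3 and CBX5 total RNA passed with no filter on low counts (-0.35 and -0.29, adjusted p = 0.00631 and 0.0301, edgeR). Without replicate 2 of the cells with both modulations CBX3 and CBX5 differed by -0.51 and -0.42. Without replicate 1 of those cells they differed by -0.22 and -0.18. Either of these fits leaves that group as a single library. CBX1 total RNA overlapped between the guides, at 143 to 175 and 149 to 178 CPM (0.00 ± 0.09, adjusted p = 0.996). The RefSeq table names 10 pseudogenes of CBX3, 5 of CBX1 and 1 of CBX5. The files list reads that align to several places apart from the gene counts, so the levels of these genes are uncertain.

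The tRNA-Ile-UAU construct, averaged over both guides, called 35 of 8143 genes in footprints (0.43%), 11 upward and 24 downward, and 0 of the 7 members. CBX5 came closest. Its footprints were 75.7 and 67.7 CPM in control cells and 58.9 and 54.4 CPM with the guide alone, against 97.7 and 89.1 CPM with the construct alone and 91.6 and 93.8 CPM with both. All 4 libraries with the construct lay above all 4 without it, at 93.1 ± 3.62 against 64.1 ± 9.46 CPM (SD, n = 4). The log2 difference of 0.53 ± 0.15 did not pass (adjusted p = 0.125, edgeR). How large a share of all genes separates by construct in this way was not determined. CBX3 footprints also did not overlap by construct, at 50.1 to 61.7 against 41.1 to 46.1 CPM (0.40 ± 0.19, adjusted p = 0.605). These counts were small, 35 to 86 reads per library for CBX5 and 22 to 47 for CBX3. By construct in footprints, DESeq2 gave no adjusted p for 4 members (CBX1, CBX3, CBX5 and SETDB1). In total RNA the construct differences of CBX5 and CBX3 were 0.09 ± 0.10 and 0.03 ± 0.12 (adjusted p = 1.000 for both). The translational efficiency of CBX5 by construct differed by 0.44 ± 0.16, which did not pass (adjusted p = 1.000). ZNF10 footprints differed by 0.22 ± 0.11 with the construct (adjusted p = 0.621) and its total RNA by 0.00 ± 0.09 (adjusted p = 1.000). The construct called 0 of 11720 genes in total RNA (0%) by edgeR, with 230 at an unadjusted p under 0.05 and 5 by DESeq2. In translational efficiency it called 0 of 8012 (0%), with 262 and 1.

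CBX1 footprints followed neither the guide nor the construct alone. They were 39.5 and 41.3 CPM in control cells and 40.5 and 53.2 CPM with both modulations. They were 19.5 and 25.7 CPM with the construct alone and 22.4 and 25.4 CPM with the guide alone. Both groups with a single change lay below all 4 libraries of the other groups. What share of all genes divides in this manner was not counted. The construct differed by -0.79 ± 0.37 in eGFP cells and by 0.93 ± 0.30 in cells with the tRNA-Ile-GAU guide, and the interaction was 1.72 ± 0.47. That interaction did not pass (adjusted p = 0.209; 0.116 to 1.000 over the 15 alternatives), and it rests on 7 to 38 reads per library. CBX1 total RNA had no such crossing, with an interaction of -0.13 ± 0.18 (adjusted p = 0.998). In translational efficiency the CBX1 interaction was 1.86 ± 0.41, the lowest p of 8012 genes, and it did not pass (adjusted p = 1.000). Over all genes the interaction called 5 of 8143 in footprints (0.0614%), with 475 at an unadjusted p under 0.05 and 0 by DESeq2. In total RNA it called 0 of 11720 (0%), with 312 and 0. None of the 7 members was among them.

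**Figure D5:**
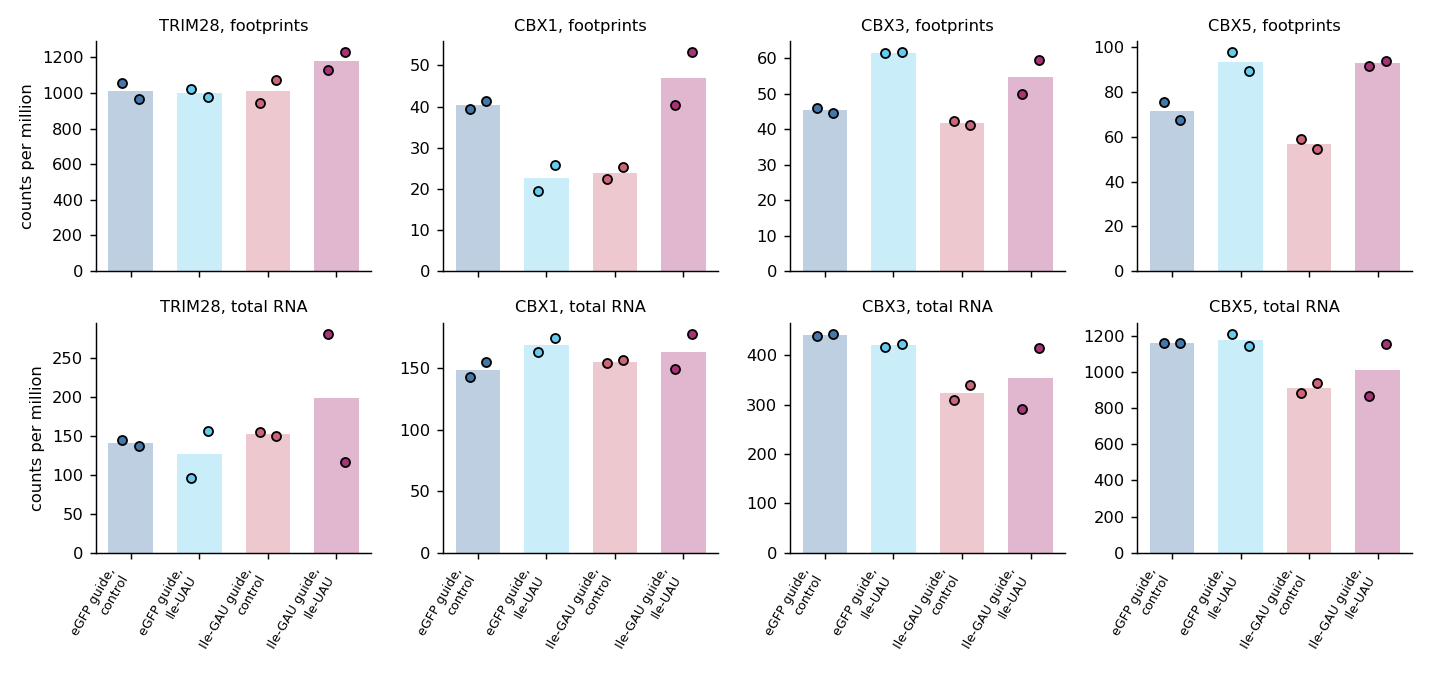
TRIM28, CBX1, CBX3 and CBX5 in CPM (vertical axes, each panel with its own scale from 0) in footprints (top) and total RNA (bottom), by guide and construct (horizontal axes). Points are libraries and bars are means of 2; CBX1 footprints are low with either single change, CBX5 footprints are higher with the construct, and the total RNA libraries with both changes lie apart.

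Other genes of the silencing machinery were described by list. No gene of the 4 lists passed by guide, and with 36 genes tested in footprints and 39 in total RNA this is near the 2.68% and 1.08% of all genes. The NuRD complex, which joins histone deacetylases to a chromatin remodeller and is recruited by TRIM28, had 13 of 13 genes tested and 0 called in either assay. Its medians were -0.03 in footprints and 0.03 in total RNA, against 0.01 and 0.02 over all genes. HDAC1, a deacetylase of the complex, differed by -0.03 ± 0.09 and -0.08 ± 0.07 (adjusted p = 0.933 and 0.755), and CHD4, its remodeller, by -0.12 ± 0.10 and 0.03 ± 0.09 (adjusted p = 0.646 and 0.927). Of 8 genes for other H3K9 methyltransferases and for the HUSH complex, which spreads that mark with SETDB1, 0 were called, with medians of 0.04 and 0.05. Within that list SUV39H1, the methyltransferase of constitutive heterochromatin, had the highest total RNA difference, 0.42 ± 0.30 (adjusted p = 0.698). Among 11 genes for DNA methylation, chromatin assembly and SUMO, 9 were tested in footprints and 11 in total RNA, with 0 called and medians of 0.01 and 0.05. Of 7 demethylases that remove the H3K9 mark or act beside it, 6 and 7 were tested and 0 called, with medians of 0.04 and 0.09. KDM3A had the highest value there in both assays, 0.24 ± 0.19 and 0.25 ± 0.11 (adjusted p = 0.654 and 0.458). At an unadjusted p under 0.05, these lists held 0 of 36 genes in footprints and 3 of 39 in total RNA (EHMT2, FAM208A, the older name of TASOR, and KDM3A), beside 13.4% and 10.5% of all genes. As no gene of these lists passed, those named were picked after their values were seen.

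The genes whose footprints most resembled those of ZNF10 across the 8 footprint libraries were RFC1, LAMB3, TXNIP, PLS3 and LRRC40. Their Pearson correlations with ZNF10 in log2 CPM were 0.989, 0.980, 0.967, 0.963 and 0.952, the highest among 8011 other genes. The points share their libraries and the split by guide, and the correlations are a description. Over the 8 total RNA libraries the correlation was 0.937 for TXNIP, a regulator of glucose uptake, 0.816 for PLS3, an actin-bundling protein, and 0.777 for LAMB3, a laminin chain. It was 0.09 for RFC1, a clamp loader subunit, and -0.08 for LRRC40. Each had a smaller difference by guide than ZNF10. RFC1 and LRRC40 did not pass in footprints (0.37 ± 0.16 and 0.53 ± 0.24, adjusted p = 0.270 and 0.275, edgeR). In total RNA these 2 genes differed by -0.01 ± 0.11 and -0.04 ± 0.13 (adjusted p = 0.994 and 0.937). TXNIP had 122 to 132 footprint CPM with the eGFP guide and 176 to 238 CPM with the tRNA-Ile-GAU guide, and 98.5 to 113 and 144 to 183 CPM in total RNA. LAMB3 had 479 to 525 and 672 to 749 CPM in footprints. The correlations of the cofactors with ZNF10 in footprints ran from -0.15 for CBX5 to 0.56 for TRIM28.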

How the data were processed

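The deposited files hold raw read counts per gene symbol, 1 file per library. Per the submitters' processing notes, cutadapt 1.17, STAR 2.5.2a and HTSeq were used with build hg38; order, settings, strand and annotation are not given in the sources used here. Footprint files list genes with at least 1 read, and a missing gene was set to 0; the HTSeq summary lines were left out. The summary line for alignments to several places was set against its sum with the gene counts and the no-feature and ambiguous lines. It made up 97.0 to 98.8% of that sum in footprints and 97.2 to 98.1% in total RNA. Whether that line counts each read once was not determined.

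Low genes were removed with filterByExpr (min.count 10, min.total.count 15); the rest were scaled and tested with edgeR 4.0.16 in R 4.3.3 (TMM, group means, quasi-likelihood test, Benjamini-Hochberg over all genes, threshold 0.05). The guide effect is the mean of the guide differences under both constructs, and the construct effect is built likewise. Translational efficiency is the footprint contrast minus the total RNA contrast in 1 fit of 16 libraries. Named genes are the 7 members, the called genes of each list (there were 0) and the 5 genes most like ZNF10; other list genes were named after their values were seen. A planned list of KRAB zinc finger genes was not used here. Likeness used log2 CPM with a prior count of 2. The members and lists were chosen with earlier results of these data known. The fits were tested on simulated data. Symbols were matched to RefSeq (GRCh38.p14) for position, 23758 by current and 1562 by older names.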

Additional observations from a re-analysis of the deposited data

How the results depend on the processing

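Of 720 alternative values with a test for the members, 709 kept their side of the threshold and 0 calls were lost or reversed. Among the tested results, only ZNF10 total RNA by guide passed in the main analysis. Only its 14 alternatives could therefore lose a call, and all other values began on the uncalled side. Sign changed in 45 values, none of them past the threshold before or after. The differences of the 11 that came to pass are given with their genes above, beside others that did not pass. Of those that came to pass, 3 came with no filter on low counts. The others came without replicate 2 or replicate 1 of the total RNA of cells with both modulations, which leaves that group as a single library. A further 40 values of ZNF10 by guide, in footprints and translational efficiency or as levels, have no test and are not counted here. DESeq2 1.42.0 gave no adjusted p for 5 values, which were left out.

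Counts of genes called moved more. The guide effect in footprints (218 genes) was 69 by DESeq2, 106 without chromosome 7 genes and 138 with footprints thinned to 358340 reads, and 123 to 215 with 1 library left out. The guide effect in total RNA (126) was 486 with no filter on low counts, 14 without chromosome 7 genes and 53 with a replicate block, and 6 to 1820 with 1 library left out: 545 without replicate 1 and 1820 without replicate 2 of the cells with both modulations, and 6 to 9 without any of the other 6. In translational efficiency (0) it was 0 to 406. The construct effect in footprints (35) was 18 by DESeq2, 16 with thinned footprints and 7 to 55 with 1 library left out. In total RNA (0) it was 11 with no filter and 5 by DESeq2, and 0 to 150. In translational efficiency (0) it was 1 by DESeq2 and 0 to 51. The interaction in footprints (5) was 0 by DESeq2, 8 with a replicate block, 8 with thinned footprints and 0 to 10. In total RNA (0) it was 40 with no filter and 0 to 520. Fewer genes and libraries enter some of these fits; otherwise the cause was not tested.

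The replicate numbers are not stated to pair the libraries. Deviations of same-numbered libraries correlated at -0.04 to 0.06 over 6 pairs of groups in footprints and at -0.56 to 0.47 in total RNA, so the block is only an alternative here. Depth limits the footprints of CBX1, CBX3, CBX5 and SETDB1 most.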
